A study of Mus musculus with 24 samples.

Results

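Small leucine-rich proteoglycans are secreted proteins of the extracellular matrix that bind collagen fibrils and growth factors. The 10 genes described here are Dcn, Lum, Kera and Epyc, which lie side by side on chromosome 10, Aspn, Omd and Ogn, which lie side by side on chromosome 13, Fmod and Prelp on chromosome 1, and Bgn on the X chromosome. They are 10 of 21887 protein-coding genes. All H3K27ac peaks in each gene or cluster and within 50 kb on each side were taken, and merged over the peak lists into 45 regions in 5 loci, out of 49361 regions in all. H3K27ac, an acetylation of histone H3 found at active promoters and enhancers, had been mapped by chromatin immunoprecipitation and sequencing in embryonic mouse limb buds, the outgrowths in which mesenchyme condenses into cartilage, tendon and other connective tissue. The genes were chosen with the peak values of these lists already known, in particular the difference between the 2 controls, so that the values of the genes are a description and support nothing by themselves.

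The 4 groups were control limb buds at embryonic day E11.5, Sox9null limb buds at E11.5, control limb buds at E12.5 and Sox9cKO limb buds at E12.5, with 1 library and 1 peak list each. Sox9 is the transcription factor required for cartilage formation, and the comparison addresses which acetylation is present without it. The labels name no allele, strain, Cre driver or number of pooled embryos, and these are not stated here. The study has 24 samples, of which 20, with other antibodies or input DNA, were not analysed here. With 1 library a group there was no replicate error and no test, and every difference below is between single lists.

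For both Sox9-deficient lists, the title of the sample and the name of its file disagree, each file carrying the other group's name. Groups were taken from the titles. Below, E11.5 control and E12.5 control are called the early control and the late control, and the deficient lists, drawn as labelled Sox9null and labelled Sox9cKO in the plots, the Sox9null-titled list and the Sox9cKO-titled list. Over all chromosomes, 75.95% of the length covered in the late control was also covered in the Sox9null-titled list, whose own covered length was shared to 84.8%. The Sox9cKO-titled list covered 82.5% of the length covered in the early control. For the pairs by title, 76.7% of the length of the early control was covered in the Sox9null-titled list and 68.6% of that of the late control in the Sox9cKO-titled list. The forelimb gene Tbx5 had 31.7 kb covered over the gene and 20 kb on each side in the early control, 3.76 kb in the late control, 0 kb in the Sox9null-titled list and 32.6 kb in the Sox9cKO-titled list. Tbx4, the hindlimb counterpart, had 29.7, 34.4, 38.1 and 31.9 kb. Whether the libraries held different limbs was not tested. Results that rest on the assignment are therefore given both ways, by title and exchanged.

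The lists held from 28419 to 36937 peaks and covered from 52.03 to 66.7 Mb, with median peak widths from 1141 to 1778 bp. The depth in reads is unknown, and its part in the number and width of peaks was not tested. Sox9 itself was covered over 96.6% and 81.3% of its length in the early and late controls, and over 55.8% and 54.3% in the Sox9null-titled and Sox9cKO-titled lists. Of 10 limb mesenchyme markers, 10 had coverage in each list but the one labelled Sox9null, where Tbx5 was at 0. Of 5 muscle markers, 3, 1, 1 and 4 had coverage, with summed lengths of 6.16, 3.48, 2.48 and 10.5 kb in the order early control, late control, Sox9null-titled and Sox9cKO-titled. Myod1 was at 0 in all 4 lists. Summed coverage of 5 erythroid markers was 17.7, 8.71, 11.3 and 22.5 kb, of 5 endothelial markers 14.97, 10.6, 11.9 and 15.9 kb, and of 4 tendon markers 21.3, 21.4, 23.3 and 22.9 kb. Summed coverage of 6 cartilage markers, Sox9 among them, was 73.6, 115.7, 78.998 and 61.9 kb, with Matn1 at 0 in all lists and Acan at 0 in the late control and the Sox9null-titled list. Nerve and glia markers summed to 15.7, 15.2, 14.3 and 18.3 kb, and 5 genes of tissues other than limb to 17.3, 15.6, 14.8 and 20.05 kb. The muscle, erythroid, endothelial, nerve and other-tissue sums were all lower in the late control and the Sox9null-titled list, where coverage of the proteoglycan clusters was higher. Summed coverage of 5 ectoderm markers did not follow this, with 9.14, 12.3, 8.06 and 10.3 kb, highest in the late control. Single genes of the lower sets also went the other way, such as the endothelial Tek (0.748, 2.72, 3.51 and 1.85 kb). The part of these cell types in the results was not tested. In tissue made of many cell types, fewer cells of a type and less acetylation per cell cannot be told apart.

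The proteoglycans fall into classes by their sequence. Class I holds decorin (Dcn), biglycan (Bgn) and asporin (Aspn), which bind collagen and members of the TGF-beta family. Class II holds lumican (Lum), keratocan (Kera), fibromodulin (Fmod), the protein of Prelp and osteomodulin (Omd), many of which carry keratan sulphate and shape collagen fibrils. Class III holds epiphycan (Epyc), a proteoglycan of epiphyseal cartilage, and osteoglycin (Ogn). Each cluster holds genes of all 3 classes. The windows of neighbours share peaks, so that the genes of a cluster are not independent of each other.

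The upstream sequences of 5 genes are shown because their starts differed in which lists had a peak. A peak lay over the starts of Kera, Aspn and Ogn in the late control and the Sox9null-titled list and in neither other list, over the start of Omd in all 4 lists, and over no start of Epyc in any list. Each sequence is the 250 bases before the first start listed for the gene (assembly GRCm38.p6, which is mm10), on the plus strand and read 5′ to 3′. The start listed for Kera (97607205) lies inside the RefSeq gene, which begins at 97606962. Most of the 250 bases shown for Kera therefore lie within the gene. Capitals mark the letters of the SOX core ACAAT and of the TATA box TATAAA on either strand.
Kera (chr10:97606955-97607204): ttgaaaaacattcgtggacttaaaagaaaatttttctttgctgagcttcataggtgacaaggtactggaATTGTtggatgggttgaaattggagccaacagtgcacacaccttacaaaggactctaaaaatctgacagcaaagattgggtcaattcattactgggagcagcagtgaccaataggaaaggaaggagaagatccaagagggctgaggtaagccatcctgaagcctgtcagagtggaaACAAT
Aspn (chr13:49544193-49544442): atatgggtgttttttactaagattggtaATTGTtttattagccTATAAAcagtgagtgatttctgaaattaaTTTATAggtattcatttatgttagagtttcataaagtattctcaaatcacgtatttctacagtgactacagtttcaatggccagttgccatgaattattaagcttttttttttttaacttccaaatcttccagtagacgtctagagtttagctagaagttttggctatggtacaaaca
Ogn (chr13:49607765-49608014): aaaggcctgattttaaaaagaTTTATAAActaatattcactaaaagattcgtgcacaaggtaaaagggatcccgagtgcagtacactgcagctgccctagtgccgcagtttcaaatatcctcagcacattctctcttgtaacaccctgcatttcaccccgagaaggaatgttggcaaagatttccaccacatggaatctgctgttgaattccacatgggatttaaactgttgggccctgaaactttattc
Omd (chr13:49582212-49582461): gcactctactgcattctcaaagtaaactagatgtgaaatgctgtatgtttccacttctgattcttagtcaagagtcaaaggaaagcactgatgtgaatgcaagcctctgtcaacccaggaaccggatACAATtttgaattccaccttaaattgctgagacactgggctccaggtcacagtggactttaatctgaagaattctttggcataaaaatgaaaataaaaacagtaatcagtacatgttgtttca
Epyc (chr10:97643818-97644067): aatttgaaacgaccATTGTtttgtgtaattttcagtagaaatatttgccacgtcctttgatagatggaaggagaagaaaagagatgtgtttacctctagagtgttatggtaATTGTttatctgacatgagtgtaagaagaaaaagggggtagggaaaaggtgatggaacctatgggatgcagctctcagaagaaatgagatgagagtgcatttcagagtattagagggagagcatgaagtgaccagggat

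RefSeq entries with a start were found for 8 of the 10 genes, with 2 starts for Epyc. For Dcn and Lum the left gene end was used. In windows from 250 bases before to 50 bases after a start, ACAAT was found on either strand in 7 of the 9 starts, against 31.02% of all 32851 windows of the table. These were all but the starts of Fmod and Bgn, and the second start of Epyc held 3 copies. In Ogn the only match begins at +12, after the start, and so is not in the sequence shown above. The 9 starts count Epyc with both of its starts, and the share over all windows was not matched for base composition. The GC content was 51% at Fmod and 63.7% at Bgn, and from 31% (Aspn) to 55.3% (Prelp) in the windows with ACAAT. The part of base composition in these counts was not tested. The TATA box letters were found in 2 starts, those of Aspn and Ogn, against 13.6% of all windows. Counted from the start, they began at -207 and -178 in Aspn and at -229 and -227 in Ogn, where the matches on both strands overlap. The E box CANNTG, read on both strands at once because it is its own complement, was in 7 starts against 72.3% of all windows, and the AP-1 letters TGANTCA were in none against 7.81%. A match is a string of letters and not a bound site. CG dinucleotides in these windows numbered 1 for Kera and Omd, 2 and 1 for Epyc, 3 for Aspn and Fmod, 4 for Ogn, 7 for Prelp and 9 for Bgn, against a median of 7 over all windows.

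The chromosome 10 cluster had the largest difference between the controls among the 5 loci, with marks at Dcn and Lum alone at E11.5 and marks spread over all 4 genes at E12.5. Its window (chr10:97429500-97731908, 302 kb) was covered over 4.32 kb in the early control, 31.5 kb in the late control, 30.8 kb in the Sox9null-titled list and 9.54 kb in the Sox9cKO-titled list. The late control and the Sox9null-titled list were thus near each other, and both were far above the other pair. The late control covered 7.29-fold more than the early control, while its total over all chromosomes was 66.7 Mb against 52.03 Mb. The early control had 2 of the 12 regions of the cluster, the Sox9cKO-titled list had 5, and the late control and the Sox9null-titled list had 11 each.

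**Figure D1:**
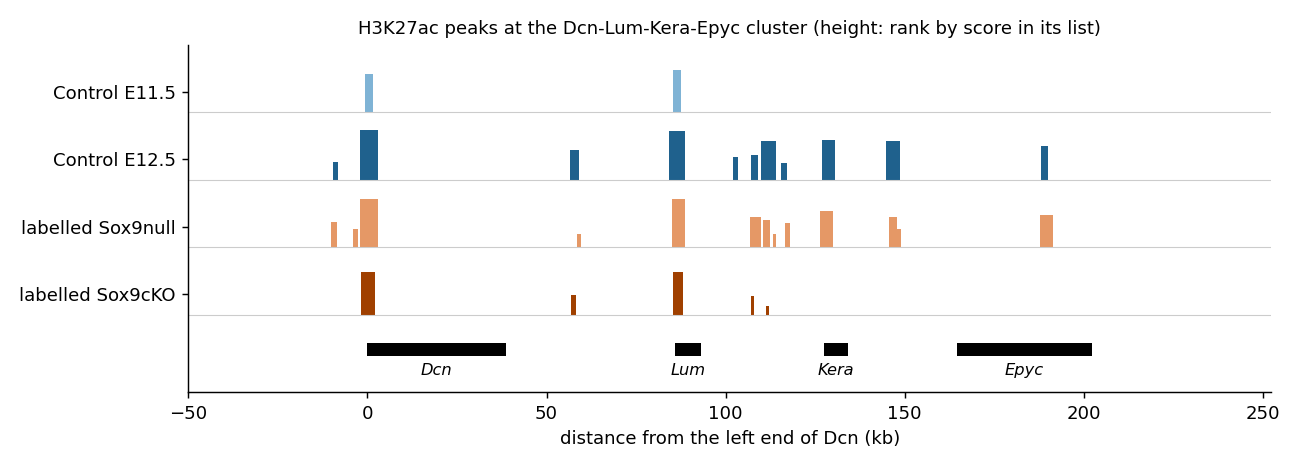
Peaks of the 4 lists at the chromosome 10 cluster. The horizontal axis gives the distance from the left end of Dcn in kb, each row is 1 list, each box is a peak drawn at its width, a taller box has a higher rank by score in its own list, and black bars are the genes. The early control has boxes at the left ends of Dcn and Lum alone, and the late control and the Sox9null-titled list have boxes on to Epyc.

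Dcn encodes decorin, the main small proteoglycan of collagen I tissues. A region over its left end (chr10:97477378-97482431) was covered over 2.18 kb in the early control, 4.98 kb in the late control, 4.92 kb in the Sox9null-titled list and 3.80 kb in the Sox9cKO-titled list. It was present in all 4 lists and was narrowest in the early control. Its peak scored 390, 1876, 1235 and 867 in the same order, at 33.6%, 9.69%, 12.6% and 25.7% from the top of its list. The score is the authors' own and was used to rank peaks within a list.

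Lum encodes lumican, a keratan sulphate proteoglycan of cornea, tendon and other connective tissue. The region over its left end (chr10:97563769-97568225) was covered over 2.14 kb in the early control, 4.33 kb in the late control, 3.79 kb in the Sox9null-titled list and 2.73 kb in the Sox9cKO-titled list. The order of the lists was the same as at Dcn. The peak stood at 25.7%, 11.02%, 13.6% and 24.4% from the top.

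Kera encodes keratocan, known best from the cornea. The region over its start and the left of its body (chr10:97605792-97610016) had 3.57 kb of peak in the late control and 3.70 kb in the Sox9null-titled list, and no peak in the early control or the Sox9cKO-titled list. In the late control 45.4% of the gene body was covered, the largest share of the 10 genes. The peak ranked at 32.01% and 38.8% from the top of these lists, well above the lowest scores that were called. Between Lum and Kera lay 4 regions, which had 1.31, 1.90, 4.13 and 1.73 kb in the late control. None of these had a peak in the early control. The Sox9null-titled list had 3 of them, with 2.99, 2.97 and 1.47 kb, and the Sox9cKO-titled list had 2, with 0.82 and 0.694 kb at ranks of 76.5% and 98.7%.

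Epyc encodes epiphycan, a proteoglycan of growth cartilage. Its starts had no peak in any list. A region inside the gene (chr10:97667453-97670970) had 2.06 kb in the late control and 3.52 kb in the Sox9null-titled list. Another region between Kera and Epyc (chr10:97624427-97628467) had 3.85 kb in the late control and 3.33 kb in the Sox9null-titled list. Neither region had a peak in the early control or the Sox9cKO-titled list. To the left of Dcn, at 8.32 kb, a small region (chr10:97469254-97471184) was again marked in the late control and the Sox9null-titled list alone. Closer to Dcn, at 2.74 kb, a region (chr10:97475411-97476756) was marked in the Sox9null-titled list alone, with 1.35 kb, the one region of the cluster without a peak in the late control. A region at 17.9 kb to the right of Dcn (chr10:97536090-97539063), had peaks in all lists but the early control, with 2.43, 1.09 and 1.49 kb.

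Beyond the window the cluster stood alone. The nearest region on its right lay 804 kb from the end of Epyc, and the nearest on its left lay 102 kb from Dcn and was marked in the late control and the Sox9null-titled list. Nearest to the 50 kb limit in the other loci were a region at 49.3 kb from Fmod, marked in all 4 lists and counted, and one at 54.4 kb from Prelp, marked in the early control and the Sox9cKO-titled list and not counted. At Bgn the outermost counted region lay at 24.3 kb and the next at 97.9 kb.

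The chromosome 13 cluster showed the same order of lists with smaller differences. Its window (chr13:49494443-49674501, 180 kb) was covered over 4.72 kb in the early control, 16.9 kb in the late control, 13.01 kb in the Sox9null-titled list and 7.47 kb in the Sox9cKO-titled list. The late control covered 3.57-fold more than the early control, and the Sox9cKO-titled list lay between the controls. The whole cluster lies within Cenpp, a long centromere protein gene, so that a peak here cannot be given to 1 gene by position. The lists had 3, 7, 6 and 5 of its 8 regions.

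**Figure D2:**
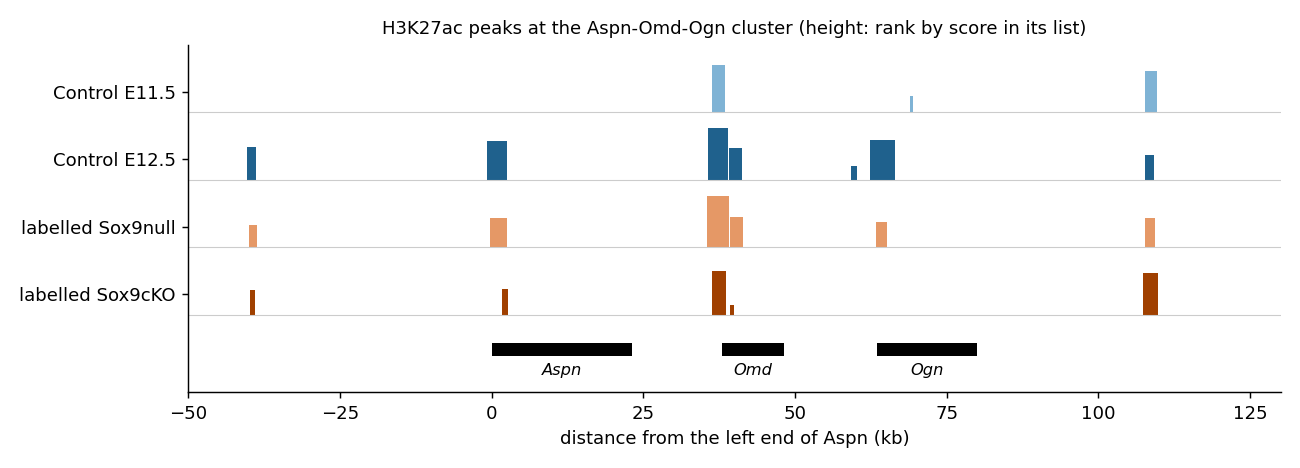
Peaks of the 4 lists at the chromosome 13 cluster. The horizontal axis gives the distance from the left end of Aspn in kb, each row is 1 list, each box is a peak drawn at its width, a taller box has a higher rank by score in its own list, and black bars are the genes. The peak at Omd is in all rows, and peaks over the starts of Aspn and Ogn are in the rows of the late control and the Sox9null-titled list.

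Omd encodes osteomodulin, a keratan sulphate proteoglycan of bone matrix. The region over its start (chr13:49579989-49583488) was the highest ranked of both clusters, with 2.13 kb in the early control, 3.32 kb in the late control, 3.50 kb in the Sox9null-titled list and 2.36 kb in the Sox9cKO-titled list. Its peaks stood at 15.04%, 5.35%, 7.12% and 22.4% from the top, with scores of 1272, 2749, 1826 and 1084. A second region within Omd (chr13:49583606-49585851) had 2.14 and 2.20 kb in the late control and the Sox9null-titled list, 0.679 kb in the Sox9cKO-titled list and no peak in the early control.

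Aspn encodes asporin, found in perichondrium and in periodontal and joint tissues. At its start (chr13:49543666-49547199) the late control had 3.31 kb, the Sox9null-titled list 2.72 kb and the Sox9cKO-titled list 1.13 kb, and the early control had no peak. The peak of the Sox9cKO-titled list lay inside the gene and did not reach the start. Ogn encodes osteoglycin, first found in bone. At its start (chr13:49606886-49610995) the late control had 4.11 kb and the Sox9null-titled list 1.75 kb, at ranks of 30.5% and 62.7%, and the other lists had no peak there. The one region of the cluster seen in the early control alone (chr13:49613340-49613934, 0.595 kb) lay within Ogn and ranked at 81.7%. The region at the shared start of Cenpp and Nol8, at 27.4 kb from Ogn, was marked in all 4 lists with 1.997, 1.51, 1.65 and 2.38 kb, and was longest in the early control and the Sox9cKO-titled list. Ecm2, a related leucine-rich matrix gene beside Aspn, had a peak over its start of 1.502, 1.20 and 0.919 kb in all lists but the early control.

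The windows of Fmod, Prelp and Bgn held peaks at E11.5 already, as did those of both clusters. At the starts, the early control had a peak at Bgn (35.3% from the top) and Fmod (76.8%) and none at Prelp. In the clusters it had one at Omd (15.04%) and at the left ends of Lum (25.7%) and Dcn (33.6%), and none at the other starts. Fmod encodes fibromodulin, which regulates collagen fibril growth in tendon and cartilage. Its window (chr1:133987254-134098280, 111 kb) was covered over 13.7 kb in the early control, 23.4 kb in the late control, 19.8 kb in the Sox9null-titled list and 16.8 kb in the Sox9cKO-titled list. The order of the lists was that of the clusters. Most of this length lay to the right of Fmod. A broad region at 11.2 kb from Fmod and 5.96 kb from Btg2 (chr1:134059523-134068908) had 6.60, 8.87, 9.39 and 7.99 kb, and its best peak ranked at 2.58%, 2.36%, 1.42% and 4.18% from the top. The score of that best peak, 3100, was shared by 1588, 1325, 702 and 2772 peaks of the 4 lists. The broad region overlaps a start of another gene, Gm19497. The window also holds a region at the Btg2 start (chr1:134077229-134080642), with 2.32, 2.56, 2.52 and 2.83 kb. At the start of Fmod (chr1:134036134-134039070) the lists had 0.88, 2.94, 2.40 and 1.63 kb, with ranks of 76.8%, 29.7%, 37.3% and 50.9%.

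**Figure D3:**
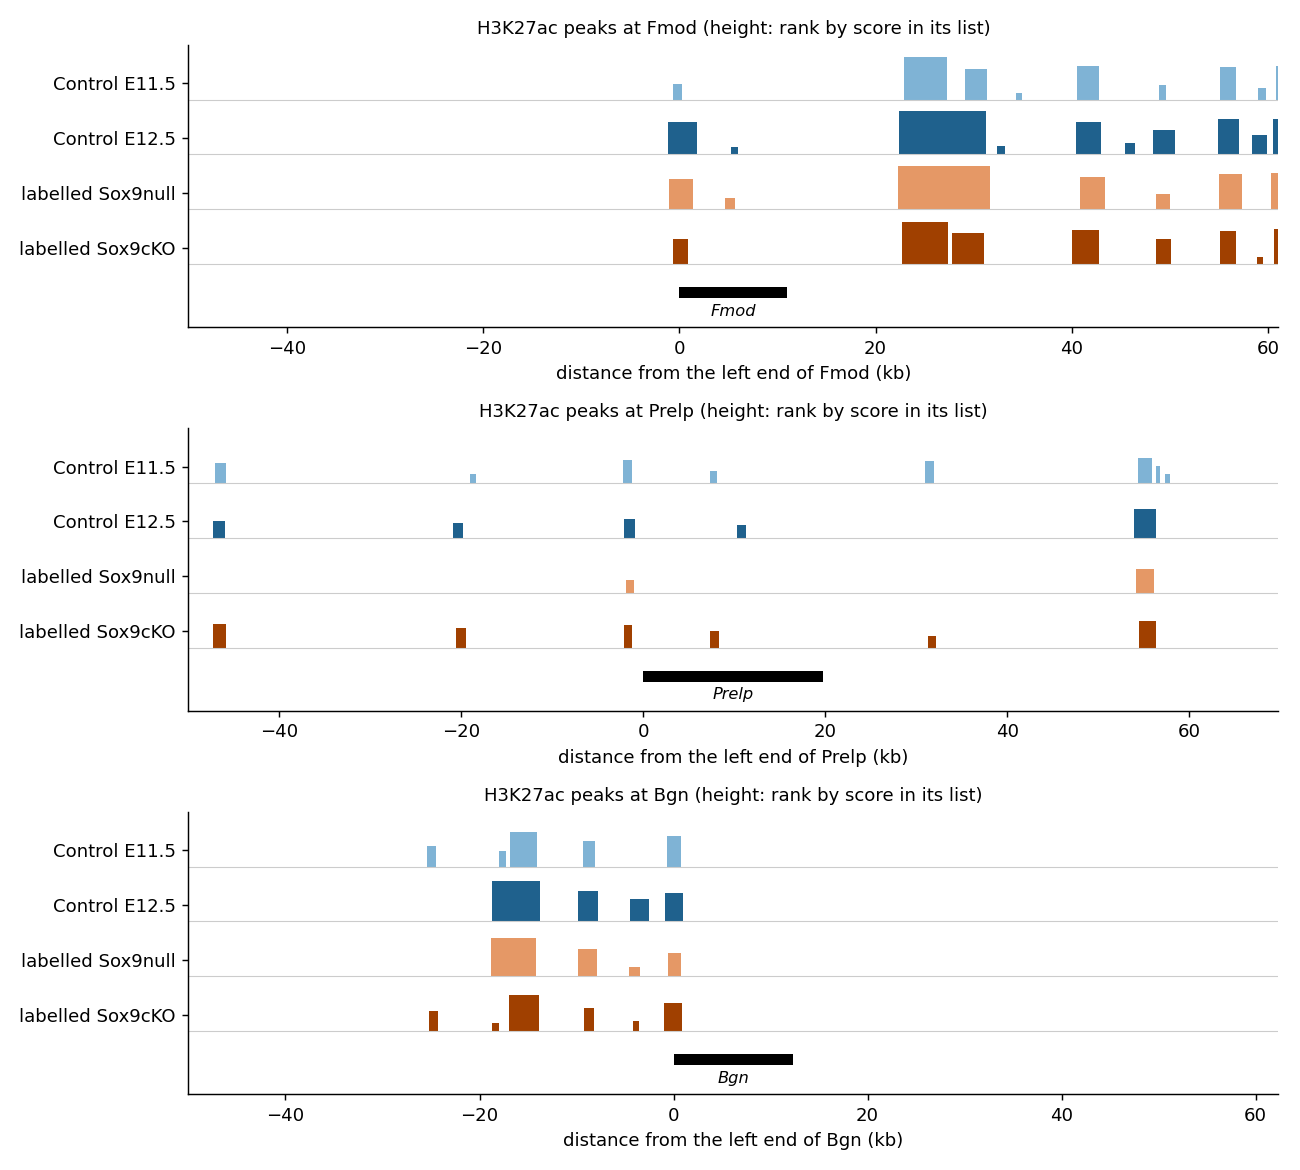
Peaks of the 4 lists at Fmod, Prelp and Bgn. In each panel the horizontal axis gives the distance from the left end of the gene in kb, each row is 1 list, each box is a peak drawn at its width, a taller box has a higher rank by score in its own list, and black bars are the genes. At Prelp the Sox9null-titled list has 2 peaks, against 8, 5 and 6 in the early control, the late control and the Sox9cKO-titled list.

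Prelp, whose protein joins basement membranes to collagen, was the exception to that order. Its window (chr1:133860304-133980102, 120 kb) was covered over 7.03 kb in the early control, 7.21 kb in the late control, 2.92 kb in the Sox9null-titled list and 7.17 kb in the Sox9cKO-titled list. The Sox9null-titled list was the low one, and the other 3 were within 0.189 kb of each other. No peak of the window ranked above 40.6% in any list. The start listed for Prelp (133921401, minus strand) lies inside the RefSeq gene, which reaches to 133930102. At this start the late control alone had a peak, of 1.02 kb at a rank of 84.003%. The right end of the gene had no peak in any list, and the nearest region beyond it lay at 11.2 kb. The start of the neighbouring gene Optc, which encodes opticin of the same family, had a peak in all 4 lists, of 0.944, 1.25, 0.907 and 0.906 kb.

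Bgn encodes biglycan, a class I proteoglycan of bone and cartilage. Its window (chrX:73433601-73545936, 112 kb) was covered over 7.25 kb in the early control, 10.7 kb in the late control, 9.13 kb in the Sox9null-titled list and 8.35 kb in the Sox9cKO-titled list. All its regions lay over the start or to the left of it. A region at 13.7 kb before Bgn (chrX:73464825-73469874) had 3.53, 4.94, 4.64 and 3.83 kb and ranked at 24.1%, 10.2%, 16.3% and 19.99%. It lay nearer to another gene, Haus7, at 5.80 kb. The start itself (chrX:73482614-73484551) had 1.48, 1.87, 1.34 and 1.91 kb, which did not follow the order of the lists at the clusters. A region at 2.54 kb before the start had peaks of 1.93, 1.11 and 0.615 kb in all lists but the early control.

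**Figure D4:**
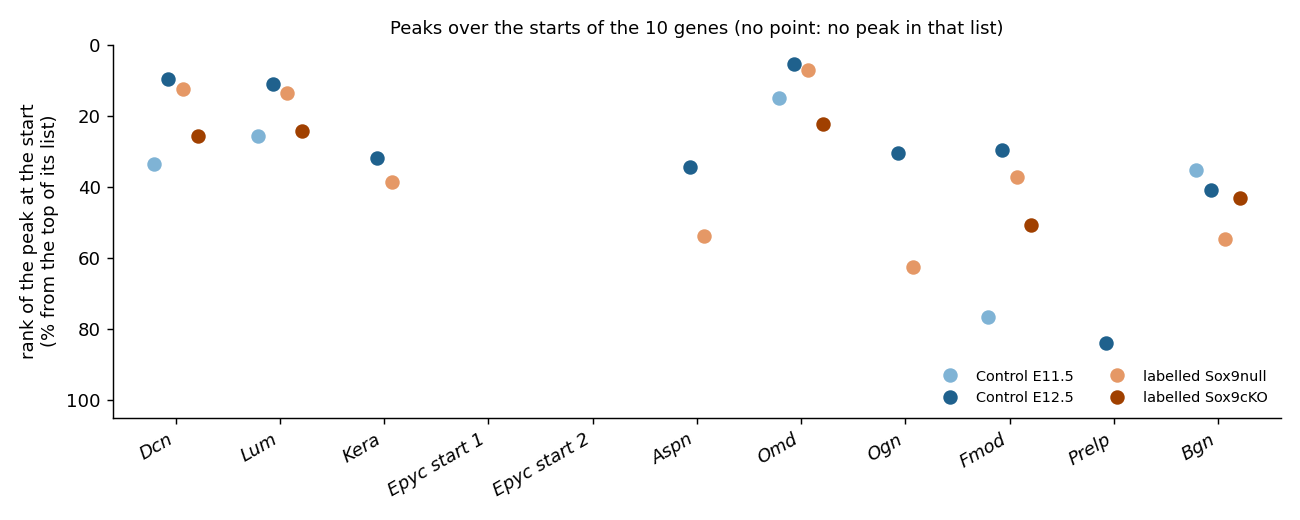
Peaks over the starts of the genes. The vertical axis gives the rank of the peak by score as a percentage from the top of its own list, with the top rank at the upper end, each point is 1 list, and a missing point is a missing peak. For Dcn and Lum the left gene end with 1000 bp on each side stands in for the start. The starts used for Kera and Prelp lie inside the gene. The starts of Kera, Aspn and Ogn have points in the late control and the Sox9null-titled list, and Epyc has none.

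Per gene, with 20 kb on each side, the genes were compared between lists. A gene was called higher or lower where the covered length differed at least 2-fold and by at least 1 kb. Between the controls 7 of 10 genes were called higher and 0 lower, and these were the 7 genes of the clusters. Over all genes with a peak in either list 5.03% were called higher and 4.04% lower, which is given beside the count only, since the genes were chosen on this contrast. Coverage at E11.5 and E12.5 was 2.18 and 8.28 kb for Dcn, 2.14 and 10.8 kb for Lum, 2.13 and 8.77 kb for Aspn, 2.13 and 10.5 kb for Omd and 0.595 and 5.07 kb for Ogn. Kera and Epyc were listed at 0 at E11.5 and had 14.8 and 5.91 kb at E12.5. Aspn and Omd share the peak at the Omd start within these windows, and Lum and Kera share peaks that lie between them. Kera and Epyc share the E12.5 peak of 3.85 kb between them. The peaks counted for Ogn at E12.5 all lie within the window of Omd too. Fmod (7.14 and 12.4 kb), Bgn (6.28 and 10.7 kb) and Prelp (3.33 and 2.50 kb) were not called. This depends on the window. With 5 kb on each side Fmod (0.88 and 3.70 kb) and Bgn (1.48 and 3.80 kb) also passed as higher, against 4.93% of all genes. Prelp (1.71 and 2.26 kb) did not. Both the late control and the Sox9null-titled list covered more than both other lists for 9 of 10 genes (20.5% of all genes with a peak), and Prelp was the exception. The median difference of the 10 genes was 6.002 kb, and that of all genes with any peak 0.11 kb.

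**Figure D5:**
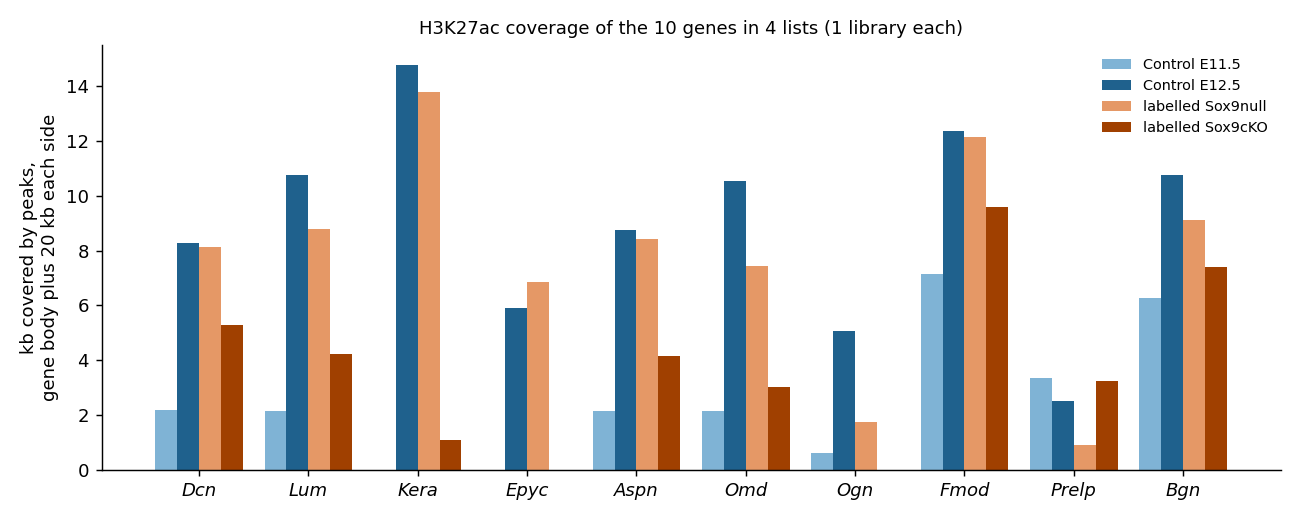
Length covered by peaks over each gene and 20 kb on each side, in kb on an axis from 0. Each bar is 1 list with 1 library, so there are no error bars, and genes of a cluster share peaks. For 9 of the 10 genes both the late control and the Sox9null-titled list are above the early control and the Sox9cKO-titled list, and Prelp is the exception.

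By regions, 20 of the 44 regions marked in either control were marked in the late control and not the early control, and 7 the other way. Over all regions in either control these shares were 20.7% and 23.2%. The chromosome 10 cluster held 9 of the 20 (9 of its 11) and the chromosome 13 cluster 5 (5 of its 8). Of the 7 marked in the early control and not the late control, 4 lay at Prelp. The 20 regions had a median rank of 60.2% in the late control, from 30.5% to 97.9%, against 78.5% for all 8537 regions of that kind. The 7 ranked between 59.98% and 99.7% in the early control. Of the 45 regions, 10 were marked in 1 list alone (34.7% of all regions) and 15 in all 4 lists (40.1%). In those 15 regions the summed length was 31.8 kb in the early control, 47.9 kb in the late control, 45.9 kb in the Sox9null-titled list and 38.99 kb in the Sox9cKO-titled list. The late control was longer than the early control in 14 of these 15, and peaks of that list were wider in general (medians of 1707 and 1141 bp).

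Presence of a peak was then compared between the pair of controls and the pair of Sox9-deficient lists. Of 45 regions, 0 were marked in the pair of controls and missing from the pair of deficient lists, against 1.64% of all regions, and 0 were marked in both deficient lists and neither control, against 1.15%. With shares this small over all regions, counts of 0 of 45 are near the background. Of the 10 genes, 0 were covered by less in both deficient lists than in both controls, against 6.39% of all genes with a peak, and 0 by more, against 16.1%. These counts are the same by title and exchanged. Against both controls the Sox9null-titled list alone lacked 2 regions, 1 at Fmod and 1 at Prelp, and the Sox9cKO-titled list alone lacked 0. The shares over all regions were not computed for these counts, so nothing is read from them. The mean of both deficient lists over the 5 loci minus the mean of both controls was -0.859 kb, where the controls were 36.98 and 89.7 kb and the deficient lists 75.7 and 49.3 kb. Regions marked in the late control and the Sox9null-titled list alone numbered 7 of 45 (3.68% of all regions), of which 5 lay in the chromosome 10 cluster. Regions marked in the early control and the Sox9cKO-titled list alone numbered 3 (6.45% of all regions), 2 at Prelp and 1 at Bgn.

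At E11.5 by title, 7 genes were called higher in the Sox9null-titled list than in the control and 1 lower. The 7 were again the genes of the clusters (3.20% of all genes were called higher). The 1 lower gene was Prelp, with 0.907 kb against 3.33 kb (5.58% called lower). Fmod (12.1 kb against 7.14 kb) and Bgn (9.13 kb against 6.28 kb) were not called. The Sox9null-titled list covered 8.12 kb over Dcn, 8.80 kb over Lum, 13.8 kb over Kera, 6.85 kb over Epyc, 8.42 kb over Aspn, 7.45 kb over Omd and 1.75 kb over Ogn. It lacked 9 of the 24 regions of the early control (33.4% of all E11.5 regions were lacking), 5 of them at Prelp, and 15 of its own 30 were not in that control (20% over all). In the upper 50% of each list by score 3 genes were called higher and 0 lower (2.61% and 13.9% over all genes), and with windows of 5 kb in place of 20 kb 0 were called lower (5.71%). With the lists exchanged, 2 genes were called higher, Dcn (5.29 kb) and Kera (1.07 kb against 0), and 0 lower, against 2.95% and 0.776% of all genes. Exchanged, 4 of the 24 regions were lacking (21.8% over all).

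At E12.5 by title, 6 genes were called lower in the Sox9cKO-titled list than in the control, those of the clusters without Dcn, and 0 higher, against 3.62% and 6.68% of all genes. It covered 4.24 kb over Lum, 1.07 kb over Kera, 0 kb over Epyc, 4.16 kb over Aspn, 3.04 kb over Omd and 0 kb over Ogn. Dcn (5.29 kb against 8.28 kb), Fmod (9.58 kb against 12.4 kb), Bgn (7.42 kb against 10.7 kb) and Prelp (3.24 kb against 2.50 kb) were not called. The list lacked 12 of the 37 regions of the late control (24.4% over all), 6 of them in the chromosome 10 cluster, and 3 of its own 28 were not in that control (30.7% over all). With the lists exchanged, 2 genes were called lower, Ogn (1.75 kb against 5.07 kb) and Prelp (0.907 kb against 2.50 kb), and 0 higher, against 3.87% and 1.48% of all genes. Exchanged, 8 of the 37 regions were lacking (24.6% over all). Exchanged, the chromosome 10 cluster thus had 31.5 kb in the late control and 30.8 kb in the deficient list, and 4.32 kb in the early control and 9.54 kb in the deficient list. Exchanged, the chromosome 13 cluster had 16.9 and 13.01 kb, and 4.72 and 7.47 kb.

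Other genes of the pathway were taken from lists that were also drawn up with earlier results known. Their counts stand beside the 5.03% of all genes called higher and 4.04% called lower between the controls, and their medians beside 0.11 kb for all genes with any peak. Of 8 other small leucine-rich proteoglycan genes, 1 was called higher at E12.5 against E11.5 in controls and 0 lower. It was Ecm2 (0 and 6.05 kb), whose window also holds the peak at the Aspn start. Optc had 2.34 and 3.40 kb, and Tsku, Podn and Podnl1 had 6.26 and 7.46, 4.02 and 3.11, and 2.97 and 1.89 kb. The median difference of these 8 was 0.26 kb. Of 22 collagens and fibril partners, 5 were called higher and 0 lower, with a median difference of 2.05 kb. They included Fbn2, a fibrillin gene (8.29 and 26.3 kb), Col6a3, a chain of microfibrillar collagen VI (4.76 and 13.2 kb), Col12a1, a collagen on the surface of fibrils (2.87 and 9.47 kb) and Lox, which cross-links collagen (1.13 and 3.50 kb). Of 20 enzymes of glycosaminoglycan chains 3 were called higher and 1 lower, with a median difference of 0.319 kb. They were Papss2 (1.11 and 10.25 kb), Csgalnact1 (1.09 and 5.13 kb) and Chst3 (3.84 and 7.83 kb), and Chpf was the lower one (4.34 and 1.39 kb). Of 15 growth factors and receptors that these proteoglycans bind, 4 were called higher and 0 lower, among them Egfr (0 and 4.64 kb), Tgfb2 (4.47 and 9.26 kb) and Tlr2 (1.10 and 4.17 kb).

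The genes outside the loci with coverage over the 4 lists most like that of Kera were sought by the Euclidean distance of log2(kb + 1) over the 4 lists. The nearest were Gm765 (distance 1.55), Cpa6 (1.68), Sema3c (1.71), Il17d (1.87) and Lrrc69 (1.94). Sema3c had 1.59, 16.5, 9.48 and 2.80 kb in the order early control, late control, Sox9null-titled and Sox9cKO-titled, against 0, 14.8, 13.8 and 1.07 kb for Kera. With 4 values a gene, such a likeness describes these lists only.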

How the data were processed

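H3K27ac peak lists of 4 libraries of mouse limb buds were used, 1 for each group. The deposited lists give each peak's position and a score, which no header explains and which the authors made. Peaks were ranked and filtered by it inside each list. Where scores of the 4 lists stand side by side, no difference between lists is read from them. The submitters' processing notes name the build mm10 and the tools CASAVA 1.8 and deepTools, with no role for either tool. Per the peak names in column 4 the caller was MACS. Its version, its settings, the aligner and any use of an input library were not given in the sources used here. The 4 lists belong to 1 sample each.

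Starts were made 1-based. Peaks of the 4 lists that overlapped or touched were merged into regions. Covered length was summed over gene bodies plus 20 kb, and over loci plus 50 kb, with genes from RefSeq (GRCm38.p6). No test was possible. The members and lists were chosen with earlier results of these data known. All 10 genes are named, and of other lists at most 4 called genes each by size of difference, with a few genes added after their values were seen (Optc, Tsku, Podn and Podnl1). The functions were checked on simulated peaks. A planned comparison of the proteins was not run. Alternatives were stricter lists by score, other overlap, merging and window sizes, scaled covered length and exchanged lists. Python 3.11.15, numpy 2.4.6, pandas 2.3.3 and matplotlib 3.10.9 were used.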

Additional observations from a re-analysis of the deposited data

Results flagged for a closer look

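Deficient and control lists of the same stage, by title, differed in opposite directions at both clusters and at all 7 of their genes. At both clusters and at 6 of the genes each difference was at least 2-fold and 1 kb, and these are given here. Dcn passed that at E11.5 (5.94 kb) and not at E12.5 (-2.98 kb). The difference between the stages was not tested, and the share of all genes with such opposite differences was not computed. The late control minus the early control, the contrast on which the genes were chosen, is part of each difference between the stages below. It was 27.2 kb over the chromosome 10 cluster and 12.1 kb over the chromosome 13 cluster. A low early control and a high late control push the 2 differences in opposite directions. The difference at E11.5 (Sox9null minus control) less that at E12.5 (Sox9cKO minus control) was 48.4 kb over the chromosome 10 cluster, made of 26.5 and -21.96 kb. Over the chromosome 13 cluster it was 17.7 kb, made of 8.29 and -9.38 kb. Over genes plus 20 kb it was 27.5 kb for Kera, 13.2 kb for Lum, 12.8 kb for Epyc, 12.8 kb for Omd, 10.9 kb for Aspn and 6.22 kb for Ogn. With the deficient lists exchanged the difference at the earlier stage was 5.22 kb and at the later stage -0.711 kb over the chromosome 10 cluster. Over the chromosome 13 cluster these were 2.75 and -3.84 kb.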

How the results depend on the processing

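Of the alternative values of the main counts and lengths, 100 stayed near the reported value (counts within 1.5 times) and 46 moved. No paired analysis was possible because each group had 1 library. With peaks in the upper 50% by score, 21 regions were left, 10, 20, 12 and 11 in the early control, late control, Sox9null-titled and Sox9cKO-titled lists. Then 11 were in the late control and not the early control, 1 was the reverse, and 2 E11.5 regions were missing from the Sox9null-titled list. With the same number of top peaks the last 2 counts were 2 and 3, and with a 20 kb flank 4 and 4, with 13 regions in the early control and 18 in the Sox9cKO-titled list. With a 100 kb flank 11 regions were in the early control and not the late control. With the lists exchanged 4 E11.5 regions were missing (21.8% over all). Chosen after seeing the data, the Sox9null-titled list alone lacked 2 regions of both controls and had 1 that neither control had. Apart from the exchanged lists, the shares over all regions were not computed for the region counts of this paragraph, so nothing is read from those counts.

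The difference between controls over the 5 loci (52.8 kb) was 37.9 kb when scaled to each list's total, 42.1 kb with the upper 50%, 54.7 kb with the same number of top peaks, and 47.1 and 58.3 kb with 20 and 100 kb flanks. In the same order the difference of the Sox9null-titled list from the early control (38.7 kb) was 33.2, 20.1, 43.3, 39.3 and 41.6 kb, and 12.4 kb exchanged. That of the Sox9cKO-titled list from the late control (-40.4 kb) was -31.6, -34.4, -42.0, -36.999 and -45.4 kb, and -14.1 kb exchanged. The mean of the deficient lists against the controls (-0.859 kb) was 0.846, -7.16, 0.631, 1.17 and -1.88 kb, so its sign depends on the setting.

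Of differences of at least 2-fold and 1 kb, 4 turned in direction. One was the chromosome 13 cluster for the Sox9null-titled list against the early control with the upper 50% (-0.625 kb), where that list keeps 1 of its 6 peaks, at the Omd start. The early control there keeps its peaks at the Omd start and at Cenpp and Nol8. Exchanging the lists turned the other 3, Prelp (0.148 kb over its window) and Ogn (-0.595 kb) at E11.5, and Epyc (0.944 kb) at E12.5. Smaller differences turned too, at Prelp among others. Over its window the controls differed by 0.189 kb, and by -1.60 to 2.50 kb under the alternatives, and the Sox9cKO-titled list differed from the late control by -0.041 kb, and by -4.30 to 2.58 kb. Over the gene the controls differed by -0.836 kb, and by -1.59 to 0.56 kb. Of genes called at E11.5 by title, 3 were higher and 0 lower with the upper 50%, 0 lower with 5 kb windows, and 2 higher and 0 lower exchanged, and at E12.5 2 were lower exchanged. Between controls 7 to 9 genes were called higher under the alternatives run, against 2.16% to 10.4% of all genes. Depth is unknown, so a missing peak is one that was not called.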
